A study of Mus musculus with 32 samples.

Results

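Transcript levels in the hippocampus of 1 inbred mouse strain, whose sample titles begin with hippocampus_129S1SvImJ, were compared with those of 7 other inbred strains. It is called the index strain in the text, and the figures give its name with the usual slash. It is represented by 4 of the 32 arrays, chosen by the strain name in the sample titles, and the other 28 arrays carry C57BL/6J, SJL/J, FVB/NJ, DBA/2J, C3H/HeJ, BALB/cByJ and A/J, with 4 arrays each. All mice were untreated, no strain carries an engineered allele in the labels, and neither sex nor age is given in the sources used here. A strain is 1 pool of hippocampal RNA from 6 mice and 1 cDNA, from which cRNA was prepared on 2 occasions. Preparation 1 of a strain was hybridised to its arrays 1 and 2, and preparation 2 to its arrays 3 and 4, all of the Affymetrix U74Av2 mouse design. The 4 arrays are technical replicates, so every p-value below measures the spread of preparations and hybridisations and leaves out the spread between mice.

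The index strain belongs to a family of inbred strains that is the usual source of embryonic stem cells for gene targeting, so that many knockout lines carry chromosome of such a strain around the targeted gene. The hippocampus is a cortical structure with a few densely packed layers of excitatory neurons, the granule cells of the dentate gyrus and the pyramidal cells of the CA fields, set among interneurons, glia and vessels, with the choroid plexus lying against it. In inbred strains a transcript can differ in level because of a sequence difference in or near its gene or elsewhere in the genome, and an array probe can also bind less well where a strain differs in the probed sequence. Probe sequences were not used here, and these possibilities cannot be told apart in these values.

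Values are log2 of the deposited signal, and a strain is given as the mean ± SD of its preparations (n = 2), each preparation being the mean of 2 arrays. The median signal of the arrays of the index strain was 33.7 to 39.2 and that of the others 29.4 to 43.7, and the number of arrays limits the precision. Over the 7453 probe sets tested, arrays of the index strain correlated with r of 0.945 to 0.974 within a preparation and 0.917 to 0.936 between preparations, against 0.823 to 0.968 with arrays of other strains. Among the control probe sets, those for the sense strand were high on 11 arrays, at 6.95 or more against 5.64 or less on the other 21, and none of the 11 was an array of the index strain. The counts, and each named call that is lost, are therefore also given without the preparations that include such an array, the high-control preparations. Those fits hold no BALB/cByJ, whose 4 arrays are all high, and 1 preparation each of A/J, C3H/HeJ, FVB/NJ and SJL/J. With fewer preparations, a call can be lost whether the difference grew (Ccnd2, 2.19 from 1.96) or shrank (Spock1, 0.90 from 1.20). Array 2 of FVB/NJ, in preparation 1 by the series design, has the title day of array 3 of 6 of the other strains and a sense-strand control of 5.33, against 7.39 on array 1 of FVB/NJ. Hippocampal markers were present in the index strain, with the pyramidal cell markers Neurod6 at 7.30 ± 0.46 and Wfs1 at 8.57 ± 0.25 and the granule cell marker Calb1 at 8.12 ± 0.16.

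The first question was which transcripts set the index strain apart from the average of the other strains. Of the 7453 probe sets, 56 (0.751%) passed an adjusted p of 0.05 in the limma contrast of the index strain against the mean of the 7 other strain means, and such probe sets are called below. Of these, 26 (0.349%) were higher and 30 (0.403%) lower in the index strain. The difference was at least 2-fold for 26 of them and at least 4-fold for 6, and the median size was 0.91 on the log2 scale, while the median difference of all tested probe sets was 0.01. The called probe sets include 45 with a single gene symbol, for 44 genes, of which 19 were higher and 25 lower. With the preparation number as a block, 137 probe sets (1.84%) were called, 65 (0.872%) higher and 72 (0.966%) lower, and they include all 56. The block takes a preparation effect as common to all strains, though the title days of BALB/cByJ and FVB/NJ do not follow those of the others. Leaving out the first or the second preparation of the index strain gave fewer calls, not all of them among the 56, with the lone preparation assumed to vary like those of the other strains. Without the high-control preparations 32 were called, 29 of them among the 56, and 18 of the 32 named probe sets kept their call. With array 2 of FVB/NJ counted in preparation 2, an alternative chosen after seeing the data, 41 were called, all among the 56, and among named transcripts the calls of Ccnd2, Dusp8, Acaa1a, Glg1, Ccn3, Atm and C1qa were lost, while with the block as well 113 were called, including all 56. The plot of difference against mean signal shows where the called probe sets lie.

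**Figure D1:**
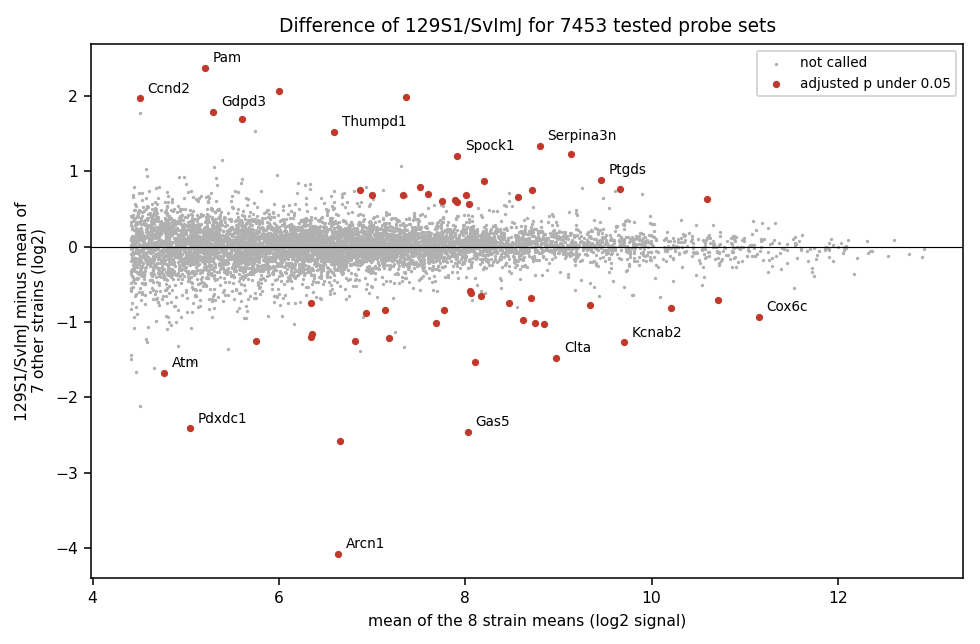
Each point is 1 of 7453 probe sets, with the mean of the 8 strain means (log2 signal) on the horizontal axis and the index strain (hippocampus_129S1SvImJ) minus the mean of the 7 other strains (log2) on the vertical axis; red points have an adjusted p under 0.05 in limma. Arcn1 lies lowest, at -4.07, and Pam highest, at 2.36, and the called transcripts span dim to bright probe sets.

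A transcript can be called because the index strain stands at the edge of all strains or because it shares a high or low level with a few of them. In 15 of the 56 called probe sets all 4 arrays of the index strain lay outside all 28 others, 4 above and 11 below, whereas 21 of all 7453 (0.282%) did so. Its strain mean was the highest of the 8 in 19 called probe sets, the lowest in 22, and inside the range of the other strains in 15. The transcripts are described in that order, those low in the index strain first.

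Arcn1, which encodes the delta subunit of the COPI coat that carries cargo from the Golgi back to the endoplasmic reticulum, had the largest difference of any tested probe set on this scale. It read 2.20, 2.91, 4.92 and 2.26 on the 4 arrays of the index strain, while the other strains ranged from 6.56 through a median of 7.19 to 7.54. All 4 arrays were below all 28 others, and the 7 other strain means were close together, with BALB/cByJ lowest at 6.78 and DBA/2J highest at 7.37. The difference was -4.07 ± 0.22 (SE; 95% interval -4.54 to -3.60), a 16.8-fold lower signal (adjusted p = 1e-07), and it was called against each of the 7 strains separately. Since the signal in the index strain was near the lower end of the scale, the size depends on how low signals are treated: with 16 added to every signal before log2 it was -2.59, and with 64 added -1.46, where Gas5 had a larger difference (-1.75). The probe set carries the suffix of those that can read more than 1 transcript. This suffix (s) or another of the letters f, g, i and r is carried by 13 of the 56 called probe sets, among them those of Clta, Cox6c, Ptgds, Ctse, Gas5 and AI506816. These letters do not all have the same meaning, and their share over all tested probe sets is not given here. Other coat subunits did not share the pattern: Copa differed by -0.26 ± 0.18, Copb2 by 0.06 ± 0.14, Copg1 by -0.05 ± 0.13, Cope by 0.03 ± 0.12 and Copz1 by -0.19 ± 0.15, and none was called.

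Clta and Kcnab2 were the other named transcripts called against all 7 strains one by one. Clta, clathrin light chain A of the coat on endocytic and Golgi vesicles, read 7.68, 8.24, 7.42 and 7.40 in the index strain, against 8.80 to 9.66 with a median of 9.17 elsewhere. All 4 arrays lay below all others, the difference was -1.48 ± 0.18 (2.78-fold, adjusted p = 0.00064), and its probe set can also read more than 1 transcript. The other light chain, Cltb, differed by 0.13 ± 0.13 and the heavy chain, Cltc, by -0.02 ± 0.10. Kcnab2 encodes a cytoplasmic beta subunit of voltage-gated potassium channels, which binds Kv1 channels and modifies their gating and surface level. It read 8.87, 8.66, 8.57 and 8.26, below the range of 9.56 to 10.40 (median 9.79) of the other strains, with a difference of -1.27 ± 0.15 (2.42-fold, adjusted p = 0.00064). A second probe set of Kcnab2 was also lowest in the index strain, at 7.90 ± 0.12 against 8.45, and was called with the preparation block (adjusted p = 0.018) but not without it (0.092). The related subunits Kcnab1 and Kcnab3 differed by -0.06 ± 0.20 and -0.23 ± 0.19 and were not called. One further probe set, for which no gene is named here, was called against all 7 strains too; it was singled out after its values were seen, and read 4.41 ± 0.37 in the index strain against a mean of 6.98.

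Dctn5, Cox6c, Ghitm and Atm also read below the other strains in the index strain. Dctn5, a subunit of the dynactin complex that links dynein to its cargo, read 8.00, 8.01, 7.43 and 7.65 against 8.29 to 9.23 (median 8.72) elsewhere, and the difference was -0.97 ± 0.14 (adjusted p = 0.0026). Cox6c, a subunit of cytochrome c oxidase in the respiratory chain, read 10.66, 10.06, 10.48 and 10.15 against 10.75 to 11.68 (median 11.26), a difference of -0.93 ± 0.14 (adjusted p = 0.0032). Neither range overlapped that of the other strains. The Cox6c call was lost with the arrays centred on their median. Ghitm, an inner mitochondrial membrane protein, was the one gene with more than 1 called probe set: the brighter read 8.80, 8.65, 8.52 and 8.69 against 9.14 to 9.74, with a difference of -0.77 ± 0.11 (adjusted p = 0.002), and the dimmer differed by -1.02 ± 0.18 (0.016). Atm, the kinase that starts the response to DNA double-strand breaks, read 2.74, 3.23, 3.34 and 3.92 against 4.04 to 5.97, a difference of -1.67 ± 0.33 (adjusted p = 0.028). These Atm signals are at the dim end, and with 16 or 64 added before log2 the difference was -0.88 or -0.38 and was not called. Without preparation 1 of the index strain the adjusted p was 0.087 for Cox6c, 0.67 for the dimmer Ghitm probe set and 0.69 for Atm, and without preparation 2 it was 0.12 for Dctn5, 0.087 for Cox6c and 0.091 for Atm. Without the high-control preparations it was 0.098 for Atm.

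**Figure D2:**
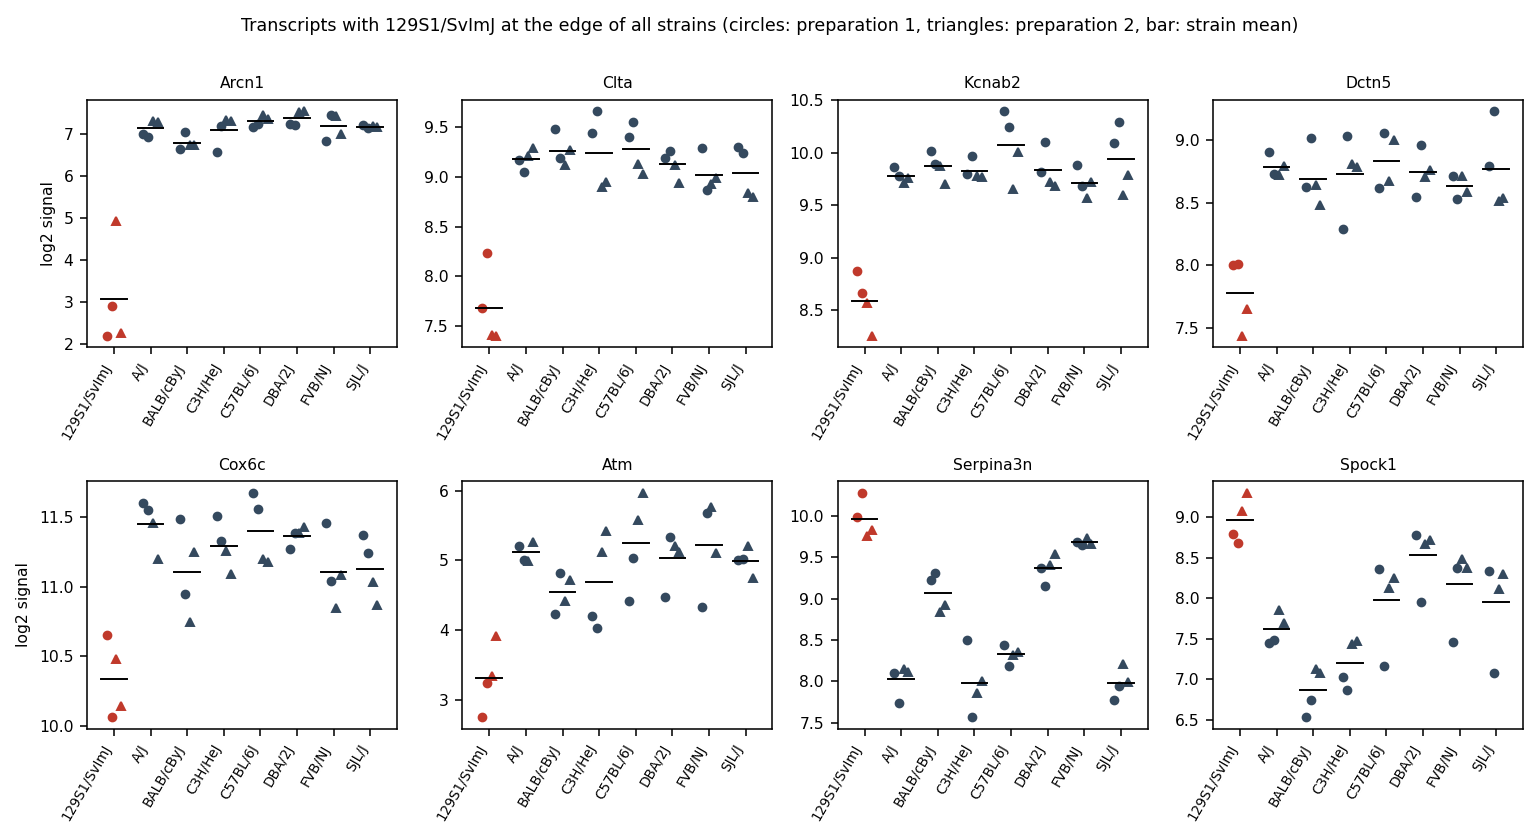
The log2 signal (vertical axis) of 8 transcripts is shown for every array of each strain; circles are preparation 1, triangles preparation 2, bars strain means, and red marks the index strain (hippocampus_129S1SvImJ). Arcn1, Clta, Kcnab2, Dctn5, Cox6c and Atm have all 4 arrays of the index strain below the other 28, Serpina3n has all 4 above, and for Spock1 the strain mean is highest but arrays of DBA/2J overlap.

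Pdhb and Stxbp2 were also lowest in the index strain, with overlapping arrays. Pdhb, the beta subunit of the E1 component of pyruvate dehydrogenase, read 8.17, 7.06, 8.50 and 8.08 against 7.30 to 9.40 (median 9.14), and BALB/cByJ was next lowest at 8.24 ± 0.31. The difference was -1.02 ± 0.20 (adjusted p = 0.029), and the call was lost in 14 of 69 alternatives, among them leaving out preparation 1 of the index strain (adjusted p = 0.93) or any 1 of SJL/J, FVB/NJ, C57BL/6J and DBA/2J. Stxbp2, a syntaxin-binding protein of the Munc18 family that acts in vesicle fusion, read 5.07, 5.81, 5.21 and 5.25 against 5.67 to 7.53 (median 6.58), a difference of -1.16 ± 0.22 (adjusted p = 0.024). Its second probe set did not differ in that direction (0.10 ± 0.29), and without preparation 1 or 2 the adjusted p of the first was 0.23 or 0.31, and 0.21 without the high-control preparations.

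The transcript with the smallest adjusted p of all, Gas5, was low in the index strain together with other strains. Gas5 is a non-coding RNA whose introns hold small nucleolar RNAs and whose spliced form rises in growth-arrested cells. Its 4 arrays read 5.49 to 6.06 in the index strain, and the difference from the mean of the others was -2.46 ± 0.12 (5.5-fold, adjusted p = 9e-08). The levels fell into a low set, the index strain at 5.87 ± 0.22, C3H/HeJ at 6.19 ± 0.17 and A/J at 6.45 ± 0.14, and a high set from BALB/cByJ at 8.52 ± 0.12 to C57BL/6J at 9.59 ± 0.06. Within the low set, the index strain did not pass the test against C3H/HeJ (-0.32 ± 0.16, adjusted p = 0.96) or A/J (-0.58 ± 0.16, 0.24). Of the 7 tested RNAs of its list of small nucleolar RNA hosts and other long non-coding RNAs, Gas5 was the only one called. Snhg11 was higher in the index strain, at 8.70, 8.68, 7.97 and 7.61 against 5.85 to 8.66, and was called with the preparation block (adjusted p = 0.0065) but not without it (0.11).

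For Pdxdc1, which encodes a protein with a pyridoxal-dependent decarboxylase domain, the probe sets disagreed. The called one read 2.32, 3.22, 3.51 and 2.70 in the index strain, a level shared with A/J, C57BL/6J, FVB/NJ and SJL/J (means 3.00 to 3.61), while BALB/cByJ, C3H/HeJ and DBA/2J stood at 7.88 to 8.22. Its difference was -2.41 ± 0.23 (adjusted p = 6.1e-05), and -0.99 with 64 added before log2. The 2 other probe sets ran the opposite way over the 8 strain means (r of -0.99 and -0.97, a description over 8 strains on the same arrays) and were higher in the index strain by 1.54 ± 0.57 and 0.57 ± 0.20, neither called. No direction for the gene can be given from these probe sets.

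Several other low transcripts were shared with 1 or 2 strains. Strap, a WD-repeat protein that binds TGF-beta receptors and RNA-processing complexes, read 5.44, 6.36, 6.49 and 6.20 and was as low in SJL/J (6.03 ± 0.26) and FVB/NJ (6.53 ± 0.21). The remaining 5 strains were at 7.28 to 8.05, and the difference from all 7 was -1.21 ± 0.20 (adjusted p = 0.0095). Fam220a read 4.89, 6.16, 5.84 and 6.02, with SJL/J alone as low at 5.67 ± 0.01 and the others at 7.08 to 7.41, a difference of -1.25 ± 0.17 (adjusted p = 0.0016). Its second probe set differed by 0.32 ± 0.47. Scg5, the chaperone 7B2 that holds prohormone convertase 2 inactive until it reaches the secretory granule, read 7.62, 7.87, 8.03 and 7.92, with C57BL/6J as low at 7.75 ± 0.23 and C3H/HeJ next at 8.32 ± 0.34. The other 5 strains lay at 8.99 to 9.33, and the difference was -1.01 ± 0.13 (adjusted p = 0.00086). Without preparation 1 of the index strain the adjusted p was 0.4 for Strap, 0.1 for Fam220a and 0.059 for Scg5. AI506816 differed by -1.19 ± 0.21 (adjusted p = 0.013; 0.35 without preparation 1, 0.1 without preparation 2 and 0.075 without the high-control preparations), with BALB/cByJ, FVB/NJ and SJL/J at 5.64 to 5.85 beside 5.30 ± 0.13, and its second probe set differed by -0.50 ± 0.39.

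Ctse and C1qa completed the low transcripts on the gene lists. The aspartic protease cathepsin E, Ctse, read 5.92, 6.37, 6.11 and 6.26 against 5.91 to 8.81 (median 6.80), and the arrays overlapped. The highest strain was DBA/2J at 8.68 ± 0.13 and the nearest A/J at 6.25 ± 0.21, and the difference was -0.88 ± 0.14 (adjusted p = 0.0079). The call was lost without DBA/2J, without preparation 1 or 2 of the index strain (adjusted p = 0.19 or 0.1) and without the high-control preparations (0.098). The second Ctse probe set differed by -1.39 ± 0.32 and was called with the block (0.00094) but not without it (0.073). C1qa, a chain of the complement starter C1q that microglia make, read 7.64, 7.24, 7.58 and 7.70 against 7.45 to 8.55 (median 8.13), a difference of -0.59 ± 0.12 (adjusted p = 0.048). Its call was lost in 50 of 69 alternatives, with an adjusted p of 0.14 without the high-control preparations. The other C1q chains did not follow it, with 0.22 ± 0.35 for C1qb and -0.01 ± 0.16 for C1qc.

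Among the transcripts higher in the index strain, Serpina3n was the one named by its gene with all 4 arrays above the 28 others and among the largest differences. Serpina3n is a secreted serine protease inhibitor that reactive astrocytes make in quantity. It read 9.99, 10.28, 9.75 and 9.83 against 7.57 to 9.73 (median 8.40), and the difference was 1.33 ± 0.13 (2.51-fold, adjusted p = 7.2e-05). The strains formed a graded series below it, with FVB/NJ at 9.68 ± 0.02, DBA/2J at 9.37 ± 0.15 and BALB/cByJ at 9.07 ± 0.27, then C57BL/6J at 8.33 ± 0.01 and A/J, C3H/HeJ and SJL/J at 7.98 to 8.02. Against FVB/NJ (0.28 ± 0.17, adjusted p = 1) and DBA/2J (0.60 ± 0.17, 0.14) the index strain did not pass the test. Gfap, the filament protein of astrocytes, differed by -0.26 ± 0.18. None of the 13 tested astrocyte markers was called, with values from -0.36 to 0.28 and 10 of the 13 below 0. Since 0.707% of all tested genes were called, a list of that size would seldom hold a call. St8sia3, a brain sialyltransferase singled out after its values were seen, also had all 4 arrays above the others, at 8.37 to 8.49 against 7.17 to 8.35 (difference 0.60 ± 0.13, adjusted p = 0.046).

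Spock1 and Ccnd2 had the highest strain mean in the index strain with overlapping arrays. Spock1, the extracellular proteoglycan testican-1, read 8.79, 8.68, 9.07 and 9.30 against 6.53 to 8.78 (median 7.77), and DBA/2J was nearest at 8.53 ± 0.23. The difference was 1.20 ± 0.20 (adjusted p = 0.01), and without preparation 1 or 2 the adjusted p was 0.059 or 0.29, and without the high-control preparations 0.12. Ccnd2, cyclin D2 of the G1 phase, which dividing precursors of the adult dentate gyrus use, read 6.59, 6.67, 5.93 and 5.70 against 2.54 to 5.72 (median 4.30). The difference was 1.96 ± 0.41 (adjusted p = 0.041; 0.72 with 64 added before log2), and the call was lost in 33 of 68 alternatives, with an adjusted p of 0.052 without the high-control preparations. No single strain pair was called for Ccnd2 without the preparation block, and with it those against A/J (0.047), BALB/cByJ (0.023), DBA/2J (0.017) and FVB/NJ (0.017) were. The other D cyclins differed by -0.40 ± 0.20 (Ccnd1) and -0.37 ± 0.21 (Ccnd3), not called.

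Smaller rises with the index strain highest of the 8 strains were seen for Ptgds, Camk2a, Dusp8, Slc25a17, Glg1 and Ccn3. Ptgds, prostaglandin D2 synthase of the meninges and choroid plexus, read 10.40, 10.44, 9.98 and 10.09 against 8.60 to 10.02 (median 9.34), a difference of 0.88 ± 0.12 (adjusted p = 0.0013; 0.1 without preparation 1). Its 2 other probe sets differed by 0.74 ± 0.18 and 0.70 ± 0.16 and were called with the preparation block (0.0051 and 0.021) but not without it. Camk2a, the alpha subunit of the calcium and calmodulin kinase of excitatory synapses, read 9.36, 9.42, 9.39 and 9.32 against 7.61 to 9.45 (median 8.78), with A/J and FVB/NJ both at 9.05 and DBA/2J at 7.85. The difference was 0.75 ± 0.14 (adjusted p = 0.019; 0.35 without preparation 1, 0.18 without preparation 2 and 0.19 without the high-control preparations), and its brighter probe set differed by 0.77 ± 0.21, called with the block (0.0028) but not without it (0.17). Dusp8, a phosphatase of MAP kinases, differed by 0.70 ± 0.14 (adjusted p = 0.03; 0.93 without preparation 1 and 0.18 without the high-control preparations), and its second probe set by 0.58 ± 0.22. The low strains for Dusp8 were C57BL/6J at 6.08 and DBA/2J at 6.59, and the other 5 lay at 7.86 to 8.21 beside 8.21 ± 0.29. The call of Dusp8 was lost in 16 of 69 alternatives, among them leaving out C57BL/6J or DBA/2J. That of Camk2a was lost in 6 of 69, among them leaving out DBA/2J. The peroxisomal carrier Slc25a17 (0.69 ± 0.15, adjusted p = 0.046), the Golgi glycoprotein Glg1 (0.68 ± 0.14, 0.046) and the matricellular protein Ccn3 (0.66 ± 0.14, 0.049) stood just inside the threshold and lost their calls in 40, 35 and 49 of 69 alternatives, with an adjusted p of 0.23, 0.24 and 0.2 without the high-control preparations. The second Glg1 probe set differed by -0.05 ± 0.10.

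Pam had the largest positive difference of all tested probe sets on this scale, and the index strain shared its level with DBA/2J. Pam, peptidylglycine alpha-amidating monooxygenase, adds the C-terminal amide that many neuropeptides need for activity. It read 7.12, 7.02, 7.74 and 7.23 in the index strain and 7.11 ± 0.51 in DBA/2J, while the other 6 strains had means of 3.30 to 5.07. The difference from all 7 was 2.36 ± 0.45 (5.15-fold, adjusted p = 0.024; 1.11 with 64 added before log2, where Serpina3n had a larger one of 1.18), and that from DBA/2J was 0.17 ± 0.60. Without preparation 1 or 2 of the index strain the adjusted p was 0.25 or 0.31, and without array 3 of C57BL/6J it was 0.083. Of the 30 tested genes of neuropeptides and their processing, Pam and Scg5 were called, in opposite directions, and Cpe (-0.01 ± 0.19), Pcsk1n (0.10 ± 0.23), Chga (0.04 ± 0.18) and Chgb (-0.13 ± 0.13) were not.

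Gdpd3, Thumpd1, Srp9, Ttr and Acaa1a were likewise high in the index strain and at least 1 other strain. Gdpd3, a phosphodiesterase that acts on lysophospholipids, read 6.82, 6.57, 6.93 and 7.12, with FVB/NJ at 7.09 ± 0.14 and the other strains at 4.14 to 5.58, a difference of 1.79 ± 0.21 (adjusted p = 0.00064; 0.80 with 64 added). Thumpd1, an RNA-binding partner of the enzyme that acetylates tRNA, fell into 2 sets: the index strain (7.62, 7.84, 8.07 and 8.14), C57BL/6J, FVB/NJ and SJL/J at means of 7.71 to 7.92, and A/J, BALB/cByJ, C3H/HeJ and DBA/2J at 5.15 to 5.67. The difference from the mean of all was 1.52 ± 0.19 (adjusted p = 0.00081; 0.052 without preparation 2). Srp9, a protein of the signal recognition particle, was at 8.96 ± 0.12, with C3H/HeJ, C57BL/6J, SJL/J and BALB/cByJ at 8.56 to 9.21 and A/J, DBA/2J and FVB/NJ at 6.97 to 7.12 (difference 0.86 ± 0.13, adjusted p = 0.0032; 0.056 and 0.11 without preparation 1 and 2). Acaa1a, a peroxisomal thiolase of fatty acid oxidation, was at 7.60 ± 0.03 beside C57BL/6J at 7.72 and SJL/J at 7.57, with the others at 6.55 to 6.76 (difference 0.68 ± 0.14, adjusted p = 0.037; lost in 29 of 69 alternatives, with 0.43 without the high-control preparations).

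**Figure D3:**
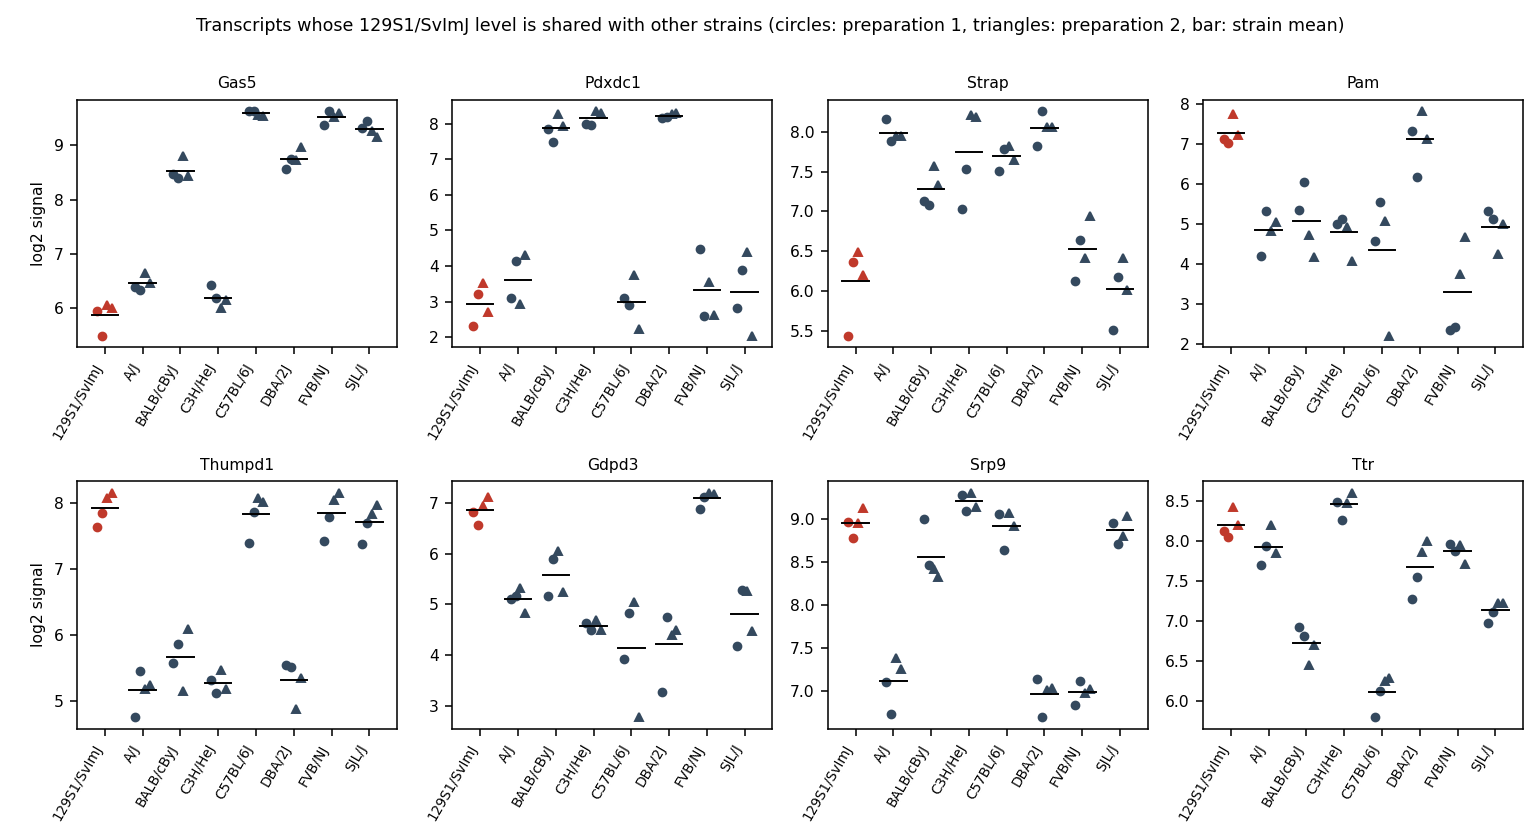
The log2 signal (vertical axis) of 8 transcripts is shown for every array of each strain, with circles for preparation 1, triangles for preparation 2, bars for strain means and red for the index strain (hippocampus_129S1SvImJ). Levels of Gas5, Pdxdc1, Thumpd1 and Srp9 fall into a high and a low set of strains, and Pam and Gdpd3 are each high in the index strain and a single other strain.

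**Figure D4:**
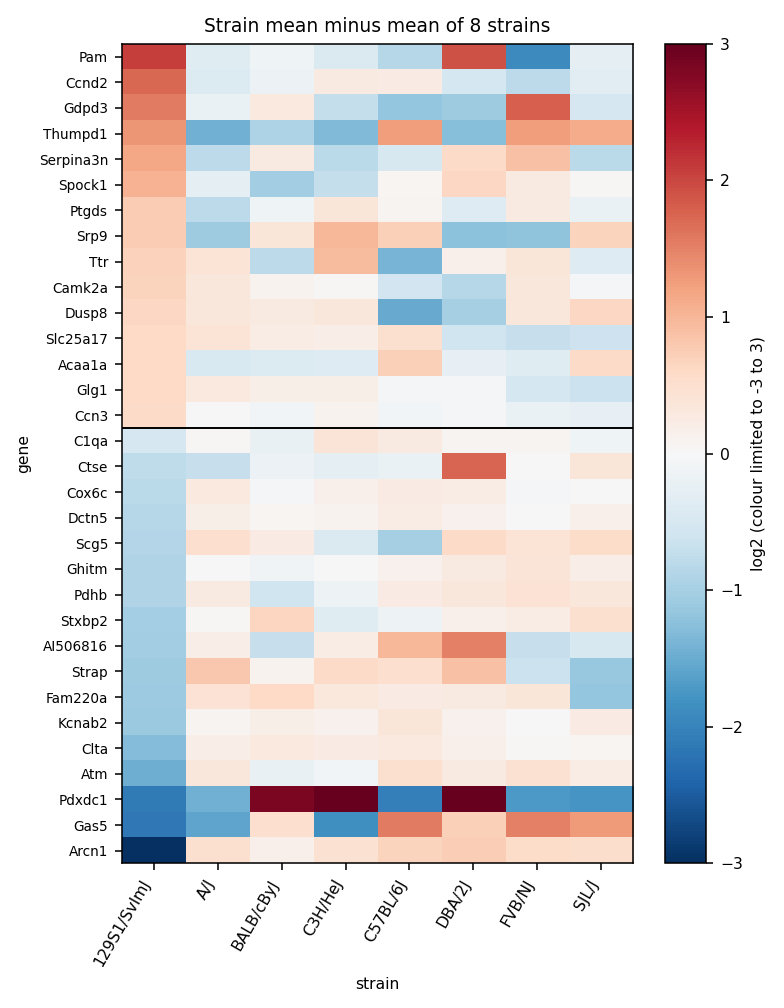
Each row is a gene named from a called probe set and each column a strain; colour gives the strain mean minus the mean of the 8 strains (log2, limited to -3 to 3). The genes above the line were higher in the index strain (hippocampus_129S1SvImJ) and those below it lower, and the other columns show which strains share each level.

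Ttr, the thyroxine carrier that the choroid plexus makes, is a marker of tissue that lies against the hippocampus. It read 8.13, 8.06, 8.43 and 8.20 in the index strain, C3H/HeJ was higher at 8.46 ± 0.11, and C57BL/6J was lowest at 6.11 ± 0.22. The difference was 0.79 ± 0.15 (adjusted p = 0.026; 0.19 and 0.35 without preparation 1 and 2, 0.055 without preparation 2 of FVB/NJ and 0.44 without the high-control preparations). Of the 11 tested choroid plexus and meningeal markers Ttr was called, and with the preparation block also Ptgds and Igf2, both higher; a list gene counts through its brightest probe set, which for Ptgds is not the one called without the block. The median difference of the 11 was 0.42, with 7 above 0, against 0.01 for all 5660 tested genes. Their summed signal was 3504 to 3693 on the arrays of the index strain and 2254 to 3769 on the others, with a median of 2635, so the ranges overlap. Markers of neighbouring brain regions had a median of 0.36, with 10 of 12 above 0 and none called, and a summed signal of 1083 to 1470 against 808 to 1257. The part of such tissue in the differences of Ttr, Ptgds and Igf2 was not tested, and in bulk tissue more cells of a type and more RNA per cell cannot be told apart.

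The gene lists covered 616 tested genes, and 14 (2.27%) were called, 5 higher and 9 lower, beside 0.707% of the 5660 tested genes; the lists were written with earlier results of these data known, so the 2 shares are not an independent comparison. With the preparation block 28 list genes were called, beside 1.7% of all tested genes, and without preparation 1 or 2 of the index strain 5 or 6 were. In 17 of 30 lists no gene was called, among them the 13 neuron markers, the 17 hippocampal subfield markers, the 12 interneuron markers, the 11 glutamate receptors and the 25 ribosomal protein genes. With the block, Nefl, a neurofilament chain, and Calb2 and Wfs1, markers of mossy and CA1 pyramidal cells, were called as higher (adjusted p = 0.027, 0.0067 and 0.0072). Calb2 read 8.15, 8.32, 8.16 and 8.26 against 7.35 to 7.98, so that its 4 arrays lay above all others, while its adjusted p without the block was 0.055. Where a list held a call it was mostly 1 gene: 1 of 47 coat and early secretory genes (Arcn1), 1 of 30 vesicle release genes (Clta), 1 of 35 ion channel genes (Kcnab2), 1 of 28 DNA damage genes (Atm) and 1 of 34 cyclin genes (Ccnd2). The respiratory chain and ATP synthase list had 1 call of 62, Cox6c, and its median was -0.07 with 49 of 62 below 0, beside 2737 of all 5660 tested genes. The share below 0 was also high for ribosomal protein genes (19 of 25), astrocyte markers (10 of 13) and glucocorticoid and stress genes (14 of 20), and that above 0 for plasticity genes (28 of 38), and no such share was tested. For the respiratory chain the summed signal was 40185 to 41080 in the index strain against 37056 to 51011. The microglia and complement list had a median of -0.14, with C1qa called, and Ctss too with the block (-0.44 ± 0.12, adjusted p = 0.028). Disc1 and Casp4, genes with known coding variants in related substrains, were not among the tested probe sets.

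The naming rule also takes from each list the genes with the smallest unadjusted p among those not called, and some of these passed with the preparation block. Nptx2, an activity-regulated pentraxin of excitatory synapses, read 7.12, 7.37, 6.73 and 6.80 against 5.39 to 7.08, a difference of 0.77 ± 0.19 (adjusted p = 0.12, and 0.032 with the block). Sdc4, a heparan sulphate proteoglycan of the cell surface, read 6.14, 5.88, 6.43 and 6.25 against 6.13 to 8.74, a difference of -1.34 ± 0.37 (0.2, and 0.037 with the block). The arrays of both overlapped those of other strains. Pde1a, a calmodulin-dependent phosphodiesterase, differed by 0.55 ± 0.13 (0.1, and 0.0078 with the block) and its second probe set by 0.34 ± 0.21. The potassium channel genes Kcnd3 and Kcnk2 differed by -0.93 ± 0.23 (0.13, and 0.019 with the block) and -0.59 ± 0.19 (0.4, and 0.017), and the Kcnd3 arrays of the index strain spread from 3.54 to 6.94. Hba-a1, an alpha globin, differed by -0.45 ± 0.12 (0.15, and 0.032 with the block), and Hbb-b2, a beta globin, by 0.19 ± 0.16 (not called).

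The other genes of that rule passed neither with nor without the block, and their differences had SEs of 0.11 to 0.34. Among receptors and vesicle proteins the differences were 0.66 for the NMDA receptor subunit Grin2b, 0.29 for the kainate receptor subunit Grik2 (0.10 in its second probe set), 0.51 for the GABA receptor subunit Gabra2, 0.40 for the serotonin receptor Htr1a, -0.36 for the nicotinic receptor subunit Chrna7, 0.41 for the calcium sensor Syt1 and -0.86 for Rab3b. Among interneuron, peptide and regional markers they were 0.58 for Reln, 0.37 for the vesicular GABA transporter Slc32a1, -0.20 for somatostatin (Sst), 0.35 for proenkephalin (Penk; 0.04 in its second probe set) and 0.92 for the transcription factor Zic1. Among glial, vascular and immune genes they were 0.35 for Qdpr, 0.23 for Mal, 0.28 for Ntsr2, -0.36 for Cst3, -0.43 for Pecam1, -0.65 for Rgs5 (-0.21 in its second probe set), -0.67 for Ly86, -0.25 for H2-DMa and 0.48 for Cd74. The second probe set of Cst3 differed by -0.41 ± 0.13 and passed with the block (0.046). Among stress, cell cycle and repair genes they were 0.31 for Hsp90aa1, -0.27 for Mt1, 0.29 for Cdkn1a, 0.63 for Gpx3, 0.54 for Gclm, 0.24 for Dusp6, -0.43 for Ccnt1 and -0.35 for Ercc2 (-0.31 in its second probe set). The remaining differences were -0.31 for Uqcrh and -0.34 for Ndufa5 of the respiratory chain, 0.42 for Rps4l and -0.28 for Rps10 of the ribosome, 0.66 for Copz2 and -0.50 for Gosr1 of the early secretory pathway, -0.30 for the cathepsin Ctsa, -0.44 for Itih3, -0.47 for Matn2 and 0.35 for the non-coding RNA Meg3 (0.44 in its second probe set).

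**Figure D5:**
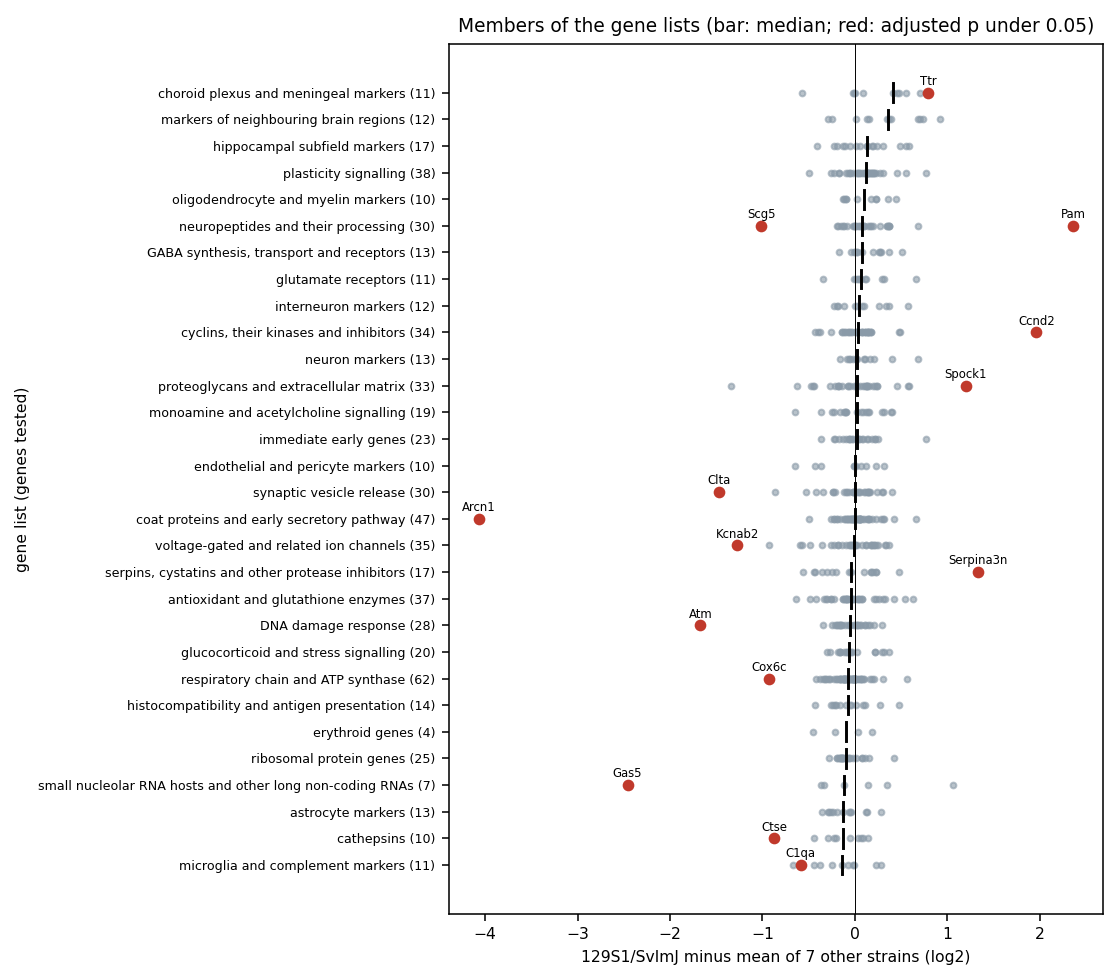
Each point is 1 tested gene of a list, placed by the index strain (hippocampus_129S1SvImJ) minus the mean of the 7 other strains (log2, horizontal axis); bars are list medians, red points have an adjusted p under 0.05, and the number of tested genes follows each list's name. Most points lie near 0, and a list with a red point usually holds a single one.

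Set against each strain in turn, the index strain differed in 34 probe sets (0.456%) from FVB/NJ, 43 (0.577%) from SJL/J, 49 (0.657%) from A/J, 56 (0.751%) from C3H/HeJ, 100 (1.34%) from DBA/2J, 120 (1.61%) from C57BL/6J and 144 (1.93%) from BALB/cByJ. With the preparation block these counts were 98, 104, 107, 114, 261, 285 and 896, and the 7 comparisons share the arrays of the index strain. All 4 arrays of BALB/cByJ had high sense-strand controls (7.60 to 7.84), and none of the index strain did. Arrays 3 and 4 of BALB/cByJ also carry title days that no array of the index strain has. Arrays 1 and 2 of BALB/cByJ share the title days of arrays 1 and 2 of the index strain. In that pair, strain and array quality as seen in these controls cannot be told apart, and for arrays 3 and 4 neither can strain and day. Of the 56 probe sets called against the mean, 4 were called against all 7 strains, 23 against 4 to 6, 27 against 1 to 3 and 2, those of Ccnd2 and Ccn3, against none. With the block Ccn3 was called against BALB/cByJ (0.025), C57BL/6J (0.042), FVB/NJ (0.034) and SJL/J (0.025). The nearest strain to the index strain was BALB/cByJ in 15 of the 56 probe sets and FVB/NJ in 10, with 4 to 9 for each of the others.

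The sample titles also carry a day, without saying which step it marks, and the 4 arrays of the index strain fall on 4 days, each shared with 6 or 7 arrays of other strains. In all 56 called probe sets the sign against the same-day arrays was the same on all 4 days. This is a description only, since the probe sets were called on these same arrays. Of the 44 called genes, 15 had more than 1 tested probe set, and in 11 of them every other probe set pointed the same way. Exceptions were Pdxdc1, Stxbp2, Fam220a and Glg1, and 29 genes rest on a single tested probe set. Only the sign of the difference was compared. In the 11 genes, r between probe sets over the strain means ran from -0.22 (AI506816) to 0.99 (Dusp8). No called genes were direct neighbours in the order of RefSeq genes: the nearest pair, Stxbp2 and Snapc2, both lower, had 18 genes between them, and 92 lay between Arcn1 and Atm. In every one of the alternatives the 32 named called probe sets kept their direction, and those of Arcn1, Gas5, Serpina3n, Gdpd3, Pdxdc1, Clta and Kcnab2 kept their call too. The alternatives reuse the same arrays, so they are not independent of the calls.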

How the data were processed

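Hippocampal RNA of 8 mouse strains was measured on 32 Affymetrix U74Av2 arrays. The authors deposited a linear intensity for each probe set on each array, which the submitters' processing notes credit to MAS5. Neither detection calls nor the scaling target is given in the sources used here; the mean of the deposited intensity, trimmed by 2% at each end, was 100.05 to 100.07 on all arrays. Groups and array numbers came from the sample titles and the preparations from the series design.

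The 66 control probe sets of the 12488 were left out. Values below 1 (2.14% of all) were raised to 1, log2 was taken, and the 60% with the highest mean log2 signal were tested (7453, down to a mean signal of 21.3). The 2 arrays of a preparation were averaged. In limma 3.58.1 (R 4.3.3), 8 strain means were estimated from the 16 preparations by a linear model, followed by eBayes with a trend (8 residual degrees of freedom). The main contrast was 129S1/SvImJ (the index strain of the report) minus the mean of the 7 other strain means, and 7 further contrasts took each strain in turn, with Benjamini-Hochberg adjustment within each contrast and a threshold of 0.05.

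Symbols were read from GEO's platform annotation, with 10855 probe sets of 1 symbol and 396 of several, from which no gene was named; a RefSeq table of GRCm38.p6 changed 0 symbols and gave the gene order. The files name no genome build, so no coordinates are given. A list gene was represented by its probe set with the highest mean signal.

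Text names the 15 genes with the largest difference in each direction among called probe sets with 1 symbol, all called list genes, and up to 2 further genes per list with the smallest unadjusted p; other genes serve as relatives on a list or are marked as singled out after their values were seen. The comparison, its members and the gene lists were chosen with earlier results of these data known.

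The block pairs the preparations across strains by their number in the series design. These numbers do not mark the same title days in all strains. Arrays 3 and 4 of BALB/cByJ and array 4 of FVB/NJ carry other title days than the second preparations of the remaining strains. The difference between preparations correlated for all 28 pairs of strains (r of 0.109 to 0.557, median 0.385), and for 129S1/SvImJ from 0.244 with BALB/cByJ to 0.557 with C3H/HeJ. Alternatives covered scaling, the filter, an offset of 16 or 64, the block, single arrays, the day, the trend, and leaving out arrays, preparations or strains, and, added after seeing the data, array 2 of FVB/NJ counted in preparation 2. No arrays held identical values. Tested on simulated data of 7453 probe sets for the main contrast, the fit recovered 65% of changes of 1 on the log2 scale and 97% of changes of 2, with 9 unchanged probe sets called and 0 wrong signs. Each simulated preparation was drawn independently around 1 mean per probe set, and 200 probe sets were changed in 129S1/SvImJ alone. Unlike the data, the simulation held no differences among the other strains and no preparation effect common to strains. Its figures therefore describe the fit under those settings and are not error rates of the calls reported here.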

Additional observations from a re-analysis of the deposited data

How the results depend on the processing

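Every count of called probe sets depends on how the spread is estimated. The 56 probe sets called against the mean of the other strains became 137 with the preparation number as a block, 95 with single arrays and the preparation as a random block, 277 with single arrays and the day as a fixed block, 35 (31.4% higher, against 46.4%) without the variance trend, and 32 (34.4% higher) without the preparations with high sense-strand controls. The list genes called, 14, became 28, 25, 49 and 8 under the block, the random block, the day and the loss of those preparations. The median over the 7 strain pairs, 56, became 114 with the block and 268 with the day. The fit with the day took the 2 arrays of a preparation as independent. Its counts of 277, 49 and 268 therefore leave out the spread between preparations and cannot be read as added sensitivity. The 21 probe sets with all 4 arrays of the index strain outside the others became 53 without those preparations, since fewer arrays remain to lie outside of. When each preparation or array was left out in turn, the counts ranged from 16 to 60 for the mean contrast, 5 to 16 for the list genes and 34 to 61 for the strain pairs. The lowest values came from leaving out a preparation of the index strain (16 and 22, 5 and 6, 34 and 35), which leaves 1 preparation for the strain, and the other 46 of 48 were within 1.5 times of the main count. The preparation block ended none of the 56 calls. With array 2 of FVB/NJ counted in preparation 2 (added after seeing the data) the block gave 113 calls, 24 list genes and 104 for the strain pairs, and the loss of the high-control preparations gave 32 (34.4% higher), 8 list genes and 51 probe sets outside. Of the 32 named called probe sets, 21 kept their call in at least 90% of the alternatives, and none changed direction. Other scalings gave 42 (median centring) and 64 (quantile) calls. With 1 pool per strain, no alternative speaks to the spread between animals.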
